A study of Drosophila melanogaster with 4 samples.

Results

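Broad Hairy peaks are the stretches of 1000 bp or more over which Hairy-bound chromatin was listed as 1 unbroken peak in Drosophila melanogaster embryos. They were selected on their width alone, from the peaks of the chromosome arms 2L, 2R, 3L, 3R and X and of chromosome 4. The rule found 629 broad peaks among the 8099 peaks of these arms, or 7.77% of them, in a list of 8958 peaks in all. The remaining 7470 arm peaks, under 1000 bp wide, are called narrower peaks here.

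Hairy, a transcriptional repressor with a basic helix-loop-helix domain, is a pair-rule protein of the early embryo, where it is made in stripes and helps to set the segment pattern. It binds DNA as a dimer and recruits corepressors, among them Groucho. It is known as a long-range repressor, since it can silence enhancers at a distance along the chromosome. In chromatin immunoprecipitation and sequencing (ChIP-seq), DNA fixed to a protein is pulled down with an antibody and sequenced, and a peak caller lists the stretches where reads pile up. The width of a listed peak depends on how far the reads spread and on the threshold of the caller.

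The series holds 2 Hairy ChIP libraries and 2 libraries of input, which is chromatin DNA taken without immunoprecipitation. All 4 came from the same strain, named Y cn bw sp in the labels, with sex given as unknown and no treatment named. The genotype lists y[1], cn[1], bw[1] and sp[1]; besides these markers it carries oc[R3.2], CG33964[R4.2] and lab[R4.2], as well as Gr22b[1], Gr22d[1], LysC[1], MstProx[1], GstD5[1] and Rh6[1]. The stage label is an embryo of 0 to 8 h, while the collection protocol speaks of egg laying of 8 to 16 h, so the age is uncertain by the labels themselves. Embryos were whole, so the cells that hold a given peak are not known. The antibody, KW3-h-D1, is a rabbit polyclonal serum against part of the Hairy protein. The data are 1 list of peaks in Release 5 coordinates, each with its limits and a score. Values per library are not part of it, so the depth is unknown and replicate errors cannot be given. The authors' score has no named scale and is compared only between peaks of the list. Peaks are named by Release 5 coordinates, and no gene is assigned to them, because the gene table at hand is of Release 6.

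Broad peaks made up a small share of the list and a larger share of its sequence. They covered 925.7 kb, or 22.9% of the 4033.9 kb that all arm peaks covered. Their median width was 1321 bp, with quartiles of 1120 and 1621 bp, against a median of 357 bp and quartiles of 261 and 523 bp for the narrower peaks. Most broad peaks lay close to the limit. Widths from 1000 bp to under 1500 bp took in 422 of them (67.1%), those to under 2000 bp 137, those to under 3000 bp 55, and 15 peaks were 3000 bp or wider. These widths chose the members and are given as a description.

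The limit of 1000 bp cut through a run of peaks with no break in width. Just inside it were 2R 16533456 to 16534455 (1000 bp, score 14.26), 2L 10860469 to 10861469 (1001 bp, 21.56), 2R 14222390 to 14223390 (1001 bp, 52.87), X 13160131 to 13161131 (1001 bp, 13.18) and X 18906149 to 18907150 (1002 bp, 25.05). Just outside it were X 16318597 to 16319595 (999 bp, score 12.58), 2R 3414274 to 3415270 (997 bp, 16.10), 3R 7215727 to 7216723 (997 bp, 22.08), 2L 6023294 to 6024289 (996 bp, 22.72) and 2R 8815763 to 8816758 (996 bp, 26.74). The scores on the inner and the outer side of the limit overlapped.

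The widest peak of the arms was 8320 bp long, on 2R at 9450462 to 9458781, with a score of 288.70. The next were 3R 7197430 to 7202854 with 5425 bp and a score of 51.74, and X 19671383 to 19676383 with 5001 bp and a score of 42.97. The widest peaks of the other large arms were 2L 11436320 to 11439912 with 3593 bp and a score of 31.96, and 3L 3836494 to 3839624 with 3131 bp and a score of 22.87. The widest peak of each large arm thus scored between 22.87 and 288.70.

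The 20 widest peaks, of 2666 bp and more, differed widely in score, from 22.49 to 430.92. Arm 3R held 10 of them, 3L 3, the X 3, 2L 2 and 2R 2. Scores of 100 or more belonged to 7 of the 20 and scores under 50 to 11, with a median of 45.9. Those of 100 or more on 3R included 25541600 to 25544648 (3049 bp, score 430.92) and 12419740 to 12423264 (3525 bp, score 290.93). Peaks of like width that scored under 50 on that arm were 24408311 to 24411597 (3287 bp, score 48.38) and 10643777 to 10646793 (3017 bp, score 25.59). Besides the peaks named above, those under 50 on the other arms were 2L 1014135 to 1017433 (3299 bp, score 24.62), X 19727429 to 19730705 (3277 bp, 36.78), X 19126618 to 19129483 (2866 bp, 22.49), 3L 1099031 to 1101998 (2968 bp, 30.81), 3L 17376934 to 17379599 (2666 bp, 43.33) and 2R 3107526 to 3110337 (2812 bp, 27.85). The remaining 5 of the 20 lay together in the 3R cluster described further on.

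Broad peaks scored higher than narrower ones, with a wide overlap. Score and width come from the same reads, so this is a description and carries no test. The median score was 24.5 for broad peaks, with quartiles of 19.0 and 32.7, and 12.4 for narrower peaks, with quartiles of 9.95 and 16.0. Of the broad peaks 197 (31.3%) scored 30 or more, against 225 (3.01%) of the narrower peaks. Only 6 broad peaks scored below the median of the narrower ones.

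**Figure D1:**
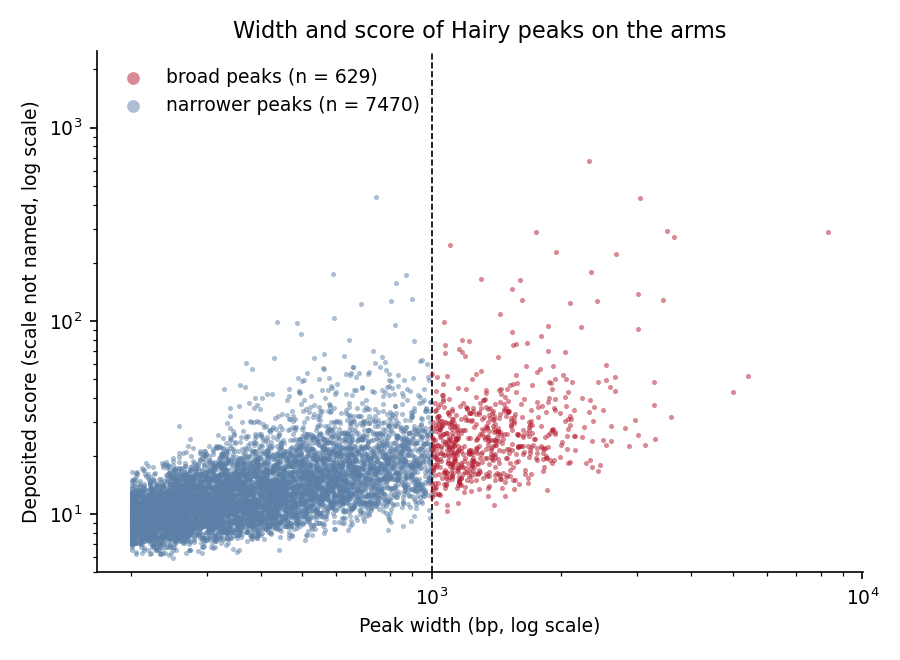
Width (bp, log scale) and deposited score (scale not named, log scale) of each peak on the arms, with the 1000 bp limit as a dashed line. Broad peaks have a median score of 24.5, narrower peaks 12.4, and single points of either class lie far above their class.

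Some strong peaks were narrow and some weak ones broad. The 5 strongest narrower peaks were 2R 16771631 to 16772373 (743 bp, score 439.46), X 16861378 to 16861967 (590 bp, 174.95), X 4400738 to 4401608 (871 bp, 172.46), 2L 18947194 to 18948017 (824 bp, 156.58) and X 14804153 to 14805052 (900 bp, 129.50). The first of these has the second highest score of the arms, after the broad peak 2R 17590146 to 17592468 at 676.30. At the other end, the 5 weakest broad peaks were 3L 1671459 to 1672544 (1086 bp, score 10.37), 2R 11762288 to 11763371 (1084 bp, 11.19), X 18771691 to 18773082 (1392 bp, 11.22), 2R 4697623 to 4698770 (1148 bp, 11.40) and 3L 4163310 to 4164333 (1024 bp, 11.45). Of all broad peaks, 49.9% had another peak within 1 kb. Of these 5 weak ones 4 did, at 119, 991, 166 and 614 bp in the order given. The exception was 3L 4163310 to 4164333, with its nearest peak at 7.23 kb.

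The share of broad peaks was higher at higher scores. No peak with a score under 10 was broad, of 1883, and 1.31% were broad from 10 to 15, 9.70% from 15 to 20, 25.8% from 20 to 30 and 44.7% from 30 to 50. From 50 to 100 the share was 46.7% (35 of 75 peaks, 95% Clopper-Pearson interval 35.1% to 58.6%), and at 100 and above it was 70.4% (19 of 27, 49.8% to 86.2%). At 100 and above, all 10 peaks of 3R were broad, as were 5 of the 6 on 2R and 2 of the 2 on 3L. On the X 2 of 6 were, and on 2L 0 of 3. The 3R peaks included those scoring 108.03, 128.28, 137.18, 162.10, 221.49 and 270.97, which lay together in the cluster described further on. All such intervals here cover counting error only and treat peaks as independent, which neighbouring peaks are not.

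Arms differed in how many broad peaks they carried per Mb, and 2R and 3R came first for broad as for narrower peaks. Arm 2R had 6.71 broad peaks per Mb, 3R 6.09, the X 4.91, 2L 4.48 and 3L 4.24. For narrower peaks the rates per Mb were 76.1 (2R), 64.5 (3R), 56.6 (X), 58.5 (2L) and 57.7 (3L). The rate on 2R over that on 2L, 3L and 3R together was 1.34 for broad peaks (exact 95% interval 1.10 to 1.63) and 1.26 for narrower peaks (1.19 to 1.33), so the intervals overlapped. This ratio sets apart the arm with the highest rate and was not planned, so it is a description. The rate on the X over that on the large autosomal arms, which are 2L and 2R with 3L and 3R, was 0.91 for broad peaks (0.74 to 1.12) and 0.89 for narrower peaks (0.83 to 0.94).

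As a share of the peaks of an arm, broad peaks were similar across the large arms. They made up 8.63% of the peaks on 3R (170 of 1971, 95% Clopper-Pearson interval 7.42% to 9.95%), 8.11% on 2R (142 of 1751, 6.87% to 9.49%), 7.98% on the X (110 of 1379, 6.60% to 9.53%), 7.10% on 2L (103 of 1450, 5.83% to 8.55%) and 6.85% on 3L (104 of 1519, 5.63% to 8.23%). Each interval overlapped every other. Chromosome 4, small and largely heterochromatic, had none in 29 peaks, which allows a share of up to 10.3% by the limit of 3 counts in the total (Clopper-Pearson upper limit 11.9%). Its widest peak, at 670937 to 671744, was 808 bp long and scored 21.08, so a share like that of the large arms was not detectable as different at this number of peaks.

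At matched scores from 10 to 50, the share of broad peaks was higher on the X than on the large autosomal arms. Only in the range from 20 to 30 did the intervals not overlap. From 20 to 30, 37.8% of the X peaks were broad (45 of 119, 95% Clopper-Pearson interval 29.1% to 47.2%), against 24.4% on the large autosomal arms (198 of 813, 21.4% to 27.5%). From 15 to 20 the shares were 13.7% (31 of 227, 9.47% to 18.8%) and 9.04% (114 of 1261, 7.51% to 10.8%). Above 50 the order turned, with 4 of 10 X peaks and 31 of 63 autosomal peaks from 50 to 100, and 2 of 6 against 17 of 21 at 100 and above. Over all scores, 7.98% of the peaks on the X and 7.76% of those on the large autosomal arms were broad. The X carried 110 broad peaks in all, against 80.9 had each score range been broad as often as on the large autosomal arms. The ratio of these, given as a description, was 1.36 (exact Poisson 95% interval 1.12 to 1.64, with the autosomal shares taken as fixed). Without the X megabase from 19000001 to 20000000, left out after the values were seen, the ratio was 1.27 (1.02 to 1.56). Scores on the X were lower in both classes, with medians of 21.7 for broad X peaks and 25.2 for broad peaks of the large autosomal arms, and of 11.7 and 12.4 for the narrower ones. A greater width at a given score and a lower score at a given width cannot be told apart here.

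**Figure D2:**
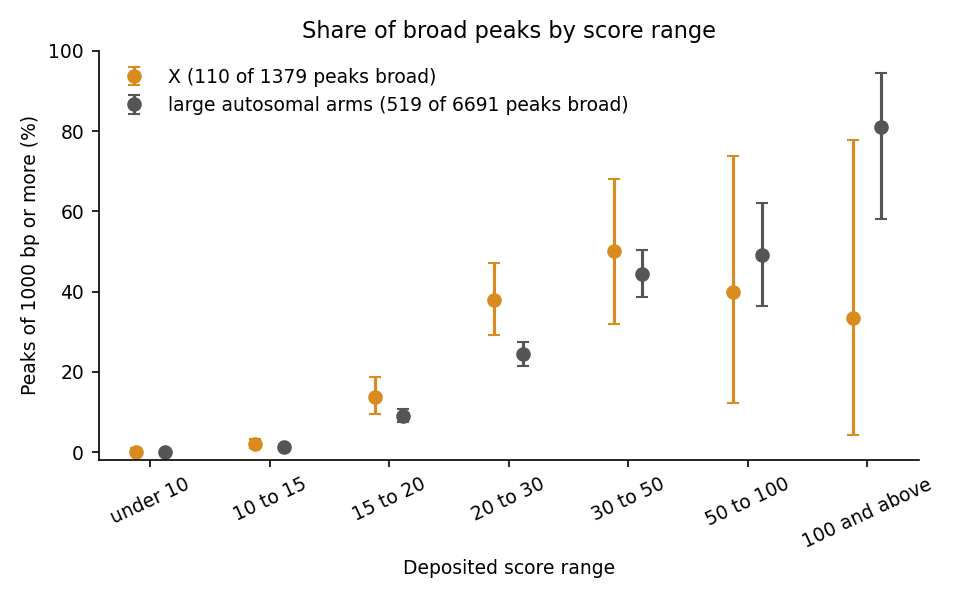
Percentage of peaks of 1000 bp or more in each range of the deposited score, for the X and for the large autosomal arms, with 95% Clopper-Pearson intervals as bars. From 20 to 30 37.8% of X peaks are broad, against 24.4% of peaks on the large autosomal arms, and the X intervals widen above 30, where few X peaks lie.

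Broad peaks were spread along the whole length of the large arms. With each of the 5 large arms divided into 10 equal parts, and the arms summed, they made up between 5.78% (part 4 from the first base, 41 of 709 peaks, 95% Clopper-Pearson interval 4.18% to 7.76%) and 8.66% (part 8, 57 of 658, 6.63% to 11.1%) of the peaks, and all 10 intervals overlapped. Parts were summed by coordinate and not by distance from the centromere, so the sum can hide unevenness within arms. On single arms the share ran from 1.41% (2L part 8, 1 of 71) to 11.7% (3R part 8, 21 of 180). Part 9 of the X held 29 broad peaks, 26.4% of those on the X, and 18.0% of its narrower peaks. In the 118 complete 1 Mb blocks of the arms, broad peaks numbered 5.28 ± 3.57 per block (SD over blocks) and narrower peaks 62.8 ± 23.7. Blocks rich in narrower peaks were also richer in broad ones (Spearman rho 0.59 over 118 blocks, a description, since blocks share the libraries and the caller). On 2L, the block from 17000001 to 18000000 held no broad peak and 14 narrower ones, and the block of chromosome 4 held none and 24.

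The block with most broad peaks was X 19000001 to 20000000, with 20 broad and 118 narrower peaks. It is named for that count, so its share of broad peaks, 14.5% against 7.25% in the rest of the X (90 of 1241), is a description. Its broad peaks were 1004 to 5001 bp wide and scored from 15.84 to 71.50 with a median of 21.5, near the median of 21.9 for the other broad peaks of the X. The next block, 3R 21000001 to 22000000, was of another kind, with 16 broad and 38 narrower peaks and a median score of 89.1 for the broad ones. Its broad share was 29.6%, likewise a description of a block named for its count. Blocks with 14 broad peaks were 2R 3000001 to 4000000, with 102 narrower peaks, and 3R 2000001 to 3000000, with 85.

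**Figure D3:**
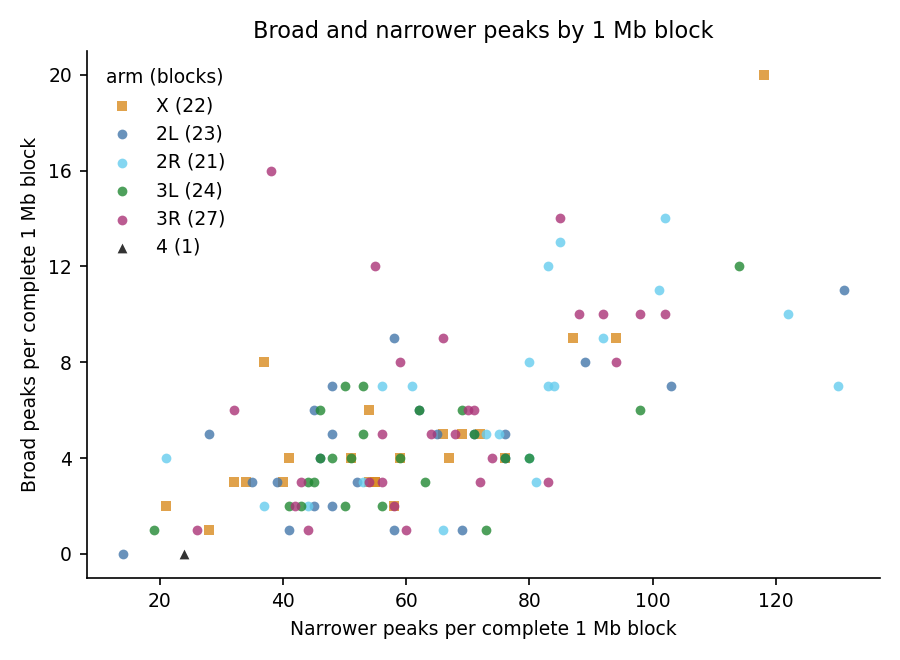
Broad peaks (vertical) against narrower peaks (horizontal) in each of the 118 complete 1 Mb blocks, coloured by arm. The X block with 20 broad peaks also has 118 narrower ones, while the 3R block with 16 broad peaks has 38.

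In adjacent windows of 100 kb, 785 of 1208 windows (65.0%) held no broad peak, 297 held 1, 80 held 2, 27 held 3, 12 held 4 and 6 held 5. A single window stood apart, 3R 21800001 to 21900000, with 13 broad and 10 narrower peaks. The windows with 5 that had the longest broad sequence were 2R 14100001 to 14200000 (with 20 narrower peaks), 3L 22200001 to 22300000 (19), 3R 24100001 to 24200000 (6) and 2L 12000001 to 12100000 (6). The 5 windows with most peaks of any width held few broad ones in part. X 19500001 to 19600000 had 5 broad of 40 peaks and 2R 14100001 to 14200000 had 5 of 25, whereas 2R 8800001 to 8900000 had 1 of 28, 2L 6900001 to 7000000 had 1 of 27 and 3R 17200001 to 17300000 had 2 of 25.

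Long stretches without any broad peak lay between them. Gaps between consecutive broad peaks had medians of 76.5 kb on 2R, 79.1 kb on 3R, 115.9 kb on the X, 134.2 kb on 2L and 160.7 kb on 3L. The longest were 2.23 Mb on 2L (16473476 to 18706758), 1.34 Mb on 3L (9449214 to 10794092), 1.31 Mb on the X (3064249 to 4376492), 1.17 Mb on 2R (756152 to 1922819) and 1.01 Mb on 3R (21868694 to 22874950). They were not empty of Hairy peaks. The 2L stretch held 62 narrower peaks, or 27.8 per Mb against 58.5 over the whole arm, and the 3R stretch held 27, or 26.8 per Mb against 64.5. The 3R stretch starts at the last broad peak of the cluster in the window from 21800001, so the richest place for broad peaks and the longest broad-free stretch of 3R lie side by side.

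Broad peaks had other peaks slightly closer to them than narrower peaks had. Distances are gaps between facing edges, so that a peak's own width does not count. The nearest other peak was a median of 1018 bp away from a broad peak and 1415 bp away from a narrower one. Within 10 kb, 90.6% of broad peaks had another peak (570 of 629, 95% Clopper-Pearson interval 88.1% to 92.8%), against 87.0% of narrower peaks (86.2% to 87.7%) and 87.2% of all arm peaks. These intervals barely separate, and they overlapped under 5 of the 10 alternative settings. Within 1 kb the shares were 49.9% (45.9% to 53.9%) and 43.1% (42.0% to 44.2%). The count of other peaks within 10 kb was 3.35 ± 2.58 around broad peaks and 2.98 ± 2.42 around narrower ones (SD over peaks), so single peaks of either class had crowded and empty surroundings.

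Other broad peaks were also more common near broad peaks. Within 10 kb, 27.2% of broad peaks had another broad peak (171 of 629, 95% Clopper-Pearson interval 23.7% to 30.8%), against 20.7% of narrower peaks (1544 of 7470, 19.8% to 21.6%) and 21.2% of all arm peaks. Within 1 kb the shares were 8.74% (6.66% to 11.2%) and 4.50% (4.04% to 4.99%). By 50 kb they were 54.1% and 52.8%, with overlapping intervals. The direction at 10 kb was the same on each large arm, with 30.6% of broad and 21.5% of narrower peaks on 3R, 28.9% and 22.8% on 2R, 32.7% and 24.5% on the X, 21.4% and 18.5% on 2L, and 19.2% and 16.3% on 3L. Without the 13 broad peaks of the largest cluster, left out after the values were seen, the shares were 25.6% (22.2% to 29.3%) and 20.6% (19.7% to 21.5%). No p-value is given for these differences, because neighbouring peaks are not independent and no library values exist in the list to set them against.

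**Figure D4:**
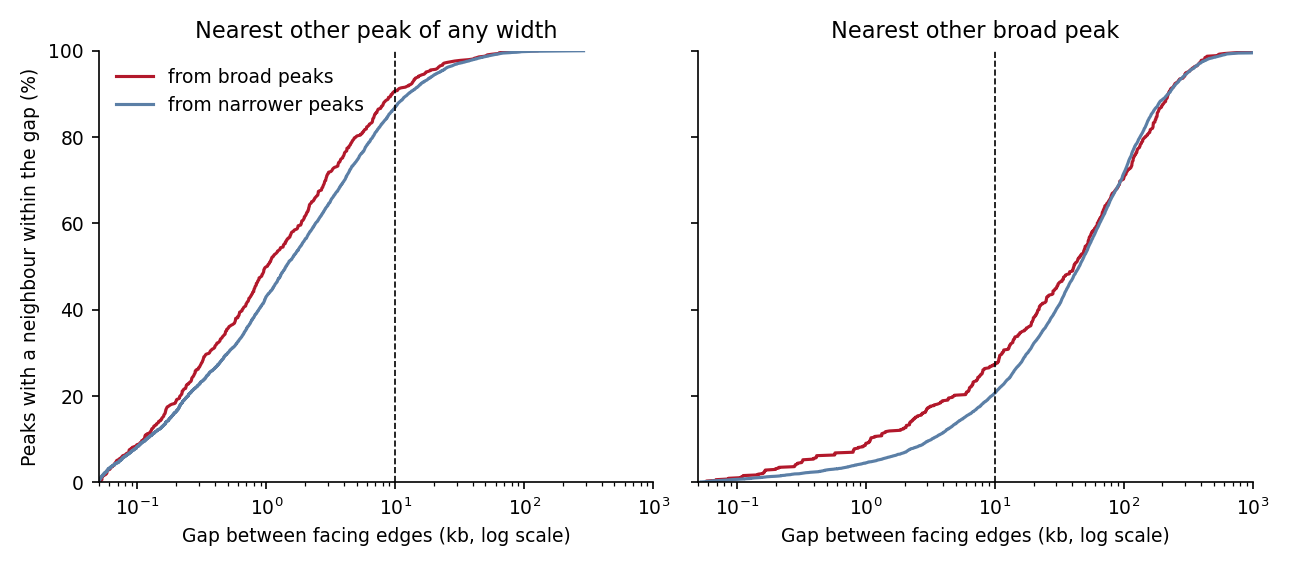
Cumulative percentage of broad and of narrower peaks whose nearest other peak of any width (left) or nearest other broad peak (right) lies within a gap in kb (log scale), with 10 kb as a dashed line. The curve of the broad peaks lies above that of the narrower peaks at 10 kb, 90.6% against 87.0% on the left and 27.2% against 20.7% on the right, and the right-hand curves meet near 50 kb.

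The peak next in line on either side was broad more often beside a broad peak. Of the 1256 peaks adjacent to broad peaks, counted per side, 13.1% were broad (95% Clopper-Pearson interval 11.2% to 15.0%), against 7.31% of the 14930 adjacent to narrower peaks (6.90% to 7.74%). A pair of broad neighbours counts from either side, so the first interval is too short. The share beside broad peaks was 15.6% for gaps up to 500 bp and 11.8% for gaps over 10 kb, against 8.66% and 6.21% beside narrower peaks. Over all gaps, the median width of the adjacent peaks was 415.5 bp beside broad peaks and 377 bp beside narrower ones. Their median score was 13.4 and 12.7. For gaps up to 500 bp the median widths were 462 and 380 bp, and the median scores 13.71 and 12.55. Over all 8093 adjacent pairs on an arm, the widths of neighbours were weakly related (Spearman rho 0.06), as they were for the 1382 pairs up to 500 bp apart (0.13) and the 705 pairs from 500 bp to 1 kb apart (0.10).

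Of the 314 broad peaks with a peak within 1 kb on at least 1 side, 251 (79.9%) scored higher than their adjacent neighbours within 1 kb. Only the next peak on each side was compared, so a stronger peak further out within 1 kb is not counted. The width rule bears on this, since 88.2% of all broad peaks scored above the upper quartile of the narrower ones, so it is a description. These 367 neighbours, counted per side, were 456 bp wide at the median and had a median score of 13.7, against 24.4 for the broad peaks they flank. The 315 broad peaks with no peak within 1 kb had a median score of 24.6 and were 1290 bp wide at the median, against 1342.5 bp for the flanked ones. A flanking peak on both sides within 1 kb was found for 53 broad peaks (8.43%) and for 589 narrower peaks (7.88%).

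Some broad peaks lay far from any other. The most isolated was 2R 21114983 to 21116058 (1076 bp, score 16.54), 125.4 kb from its nearest neighbour. The next were 2L 15579081 to 15580759 (1679 bp, score 25.49) at 71.7 kb, 2L 10545330 to 10546413 (1084 bp, score 51.65) at 68.4 kb, 2L 3123872 to 3125225 (1354 bp, score 18.19) at 63.8 kb and 3R 15622011 to 15623053 (1043 bp, score 20.66) at 63.3 kb. In all, 59 broad peaks (9.38%) had no other peak within 10 kb, against 974 narrower ones (13.0%).

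Linking consecutive broad peaks over gaps of up to 10 kb left most of them single. There were 458 single broad peaks, 66 pairs, 3 clusters of 3, 3 of 4, 1 of 5 and 1 of 13. Single ones had a median score of 23.8 and were 1270 bp wide at the median, and the 171 in pairs or clusters 25.9 and 1396 bp. The strongest peak of the arms, at 676.30, was single. Within pairs the gap ran from 58 to 9670 bp with a median of 2607 bp, and 16 of the 66 pairs were up to 1 kb apart. In 39 pairs no narrower peak lay between the members.

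The cluster of 13 lay on 3R from 21821795 to 21868693, a span of 46.9 kb. Its broad peaks covered 61.1% of the span, and the 5 narrower peaks between them raised this to 65.4%. The members scored from 22.08 to 270.97 with a median of 93.4, and were 1172 to 3642 bp wide with a median of 2036 bp. From the first to the sixth they were 21821795 to 21823830 (score 68.98), 21824634 to 21826234 (162.10), 21827928 to 21829366 (108.03), 21829652 to 21833293 (270.97), 21833617 to 21837067 (128.28) and 21842537 to 21845546 (137.18). From the seventh to the last they were 21845747 to 21848416 (221.49), 21849793 to 21851328 (87.67), 21854833 to 21857053 (93.38), 21857629 to 21858800 (69.40), 21860326 to 21863339 (90.52), 21865056 to 21866624 (75.73) and 21867423 to 21868693 (22.08). The highest scores lay in the left and middle of the span, and the last member was the weakest. The narrower peaks among them scored from 12.70 to 29.54, so the lowest broad member falls in their range and the other 12 lie above it. The longest gap between members was 5469 bp.

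**Figure D5:**
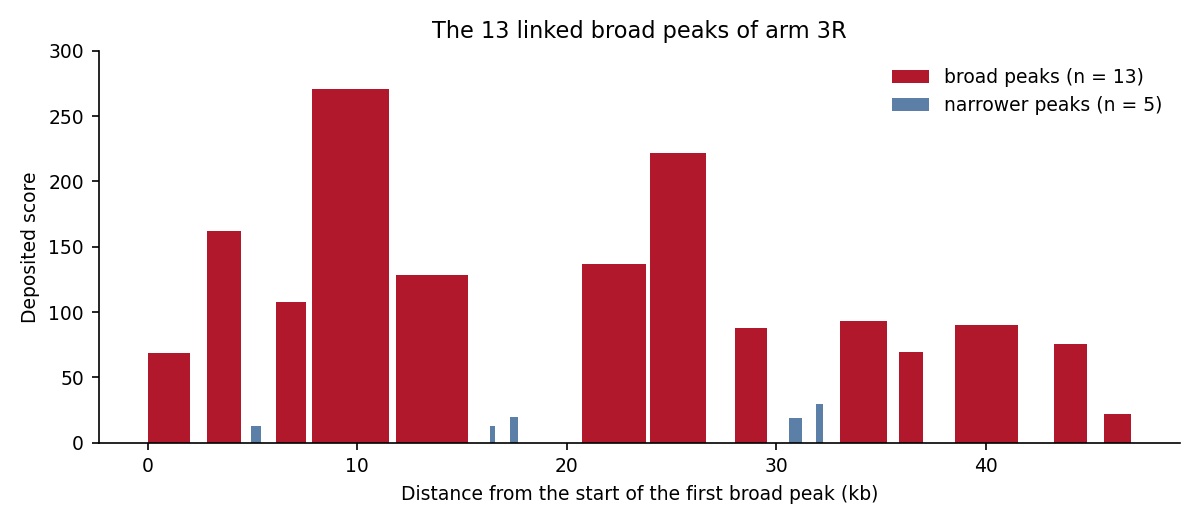
Deposited score (vertical) of each peak in the 3R cluster, drawn to scale from the start of its first broad peak in kb (horizontal), with bars as wide as the peaks. The 13 broad peaks score from 22.08 to 270.97 and the 5 narrower peaks from 12.70 to 29.54.

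The other clusters of at least 4 members were weaker or shorter. On 2R, 9447749 to 9466654 held 4 broad peaks and no narrower one, covered to 67.9% by peaks, and included the widest peak of the arms; its members scored 145.65, 288.70, 38.81 and 58.67. On 2L, 12003071 to 12012588 packed 4 broad and 2 narrower peaks into 9.52 kb, and its broad members scored 78.68, 32.85, 37.28 and 39.54. On 3R, 24147345 to 24169896 held 5 broad and 2 narrower peaks over 22.6 kb with broad scores of 13.51 to 27.24, and 26599307 to 26620230 held 4 broad peaks and 1 narrower one with broad scores of 13.44 to 37.89. In the 3R cluster of 5, a narrower peak reached 32.20, above every broad member. A high score was thus not shared by all clusters of broad peaks.

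Many narrower peaks lay within 500 bp of another one. When peaks with a gap of up to 500 bp were merged, the arms had 6717 regions, of which 1130 were 1000 bp or wider. Of these, 606 held a deposited broad peak and 524 were made of narrower peaks alone. The regions of narrower peaks alone joined a median of 2 and at most 6 peaks. They were 1348 bp wide at the median and had a median top score of 17.0, against 24.6 for regions with a broad peak. The widest merged region was 3R 21827928 to 21837067, 9140 bp of the cluster of 13. After merging, regions of 1000 bp or more were 20.5% of the regions on the X (95% Clopper-Pearson interval 18.1% to 23.1%), 17.6% on 2R (15.7% to 19.7%), 16.5% on 3R (14.7% to 18.4%), 16.0% on 2L (14.0% to 18.2%) and 14.5% on 3L (12.6% to 16.5%). The X then had the highest share of the arms, with an interval that overlapped those of 2R, 3R and 2L and not that of 3L.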

How the data were processed

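Hairy ChIP and input DNA were sequenced in 2 libraries each, and the single deposited peak list was analysed. It is in FlyBase release 5 coordinates and names MACS as source, per the file headers. The tools BWA, MACS2 and CASAVA (1.7.0.3 and 1.7.0.2) and the build BDGP5 are named, without role or order, per the submitters' processing notes. The pooling of libraries, the control and the threshold bear on how wide a peak becomes and are not given in the sources here. The score of each peak is as the authors deposited it, as are the other values, its start and end (1-based, inclusive). Members, region lists and alternatives were chosen with earlier results of these data known. Members are peaks of 1000 bp or more on the arms. Arm lengths came from general knowledge of Release 5. Named regions are the 20 widest, 5 weakest, 5 most isolated and 5 narrowest broad peaks, the 5 widest and 5 strongest narrower peaks, clusters of 4 or more and the 5 fullest windows; others named were chosen after their values were seen. Shares have 95% Clopper-Pearson intervals and rate ratios exact intervals conditional on the total, which cover counting error only. The distance and cluster code was checked on simulated peaks, and the interval of the rate ratio on simulated counts. Sequence and genes were not used here. Software was matplotlib 3.10.9, scipy 1.17.1, pandas 2.3.3 and numpy 2.4.6 under Python 3.11.15.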

Additional observations from a re-analysis of the deposited data

Results flagged for a closer look

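Peaks of 1000 bp or more also occurred on sequences outside the chromosome arms, which the width rule left out. Uextra, U and the heterochromatic scaffolds are listed because the number on each exceeds 3. That does not make it unusual, and the list holds no control to set it against. Uextra, the small unplaced scaffolds, had 5 such peaks among 728 (0.69%, 95% Clopper-Pearson interval 0.22% to 1.60%), below the 7.77% of the arms, with scores of 21.66 to 59.59. U, the other unplaced sequence, had 8 among 40 (20.0%, 9.05% to 35.6%), with a median score of 40.9 and a widest peak of 9316 bp. The heterochromatic scaffolds had 8 among 81 (9.88%, 4.36% to 18.5%), with a median score of 25.1. The mitochondrial genome, which does not exceed that count, had 3 among 10.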

How the results depend on the processing

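No paired analysis was possible because values for single libraries are absent from the peak list used here, and for that reason no replicate could be left out. Broad peaks had a higher share than narrower peaks with any neighbour, and with a broad neighbour, under each of the 10 alternatives, of which that on arm length cannot change them, by 1.10 to 5.63 and 5.02 to 9.25 percentage points. For any neighbour the intervals of the classes overlapped under 5 of the 10 (limits of 750 and 1500 bp, the higher-scoring set, 20 kb and midpoints), and for a broad neighbour under 0 of the 10. With a limit of 750 bp, 1239 peaks were broad (16.4% on 2R, 16.2% on the X, 15.0% on 3R, 14.6% on 2L and 14.4% on 3L), in 54 clusters of 3 or more; 43.1% of broad and 34.3% of narrower peaks had a broad peak within 10 kb, and median scores were 21.5 and 12.0. With 1500 bp, 207 were broad (3.60% on 3R, 2.54% on the X, 2.51% on 2R, 2.14% on 2L and 1.71% on 3L), in 2 clusters; the shares were 16.9% and 7.65%, and the medians 28.5 and 12.6. Merging peaks within 500 bp gave 1130 broad regions (20.5% on the X, 17.6% on 2R, 16.5% on 3R, 16.0% on 2L and 14.5% on 3L), 42 clusters, 86.4% with any neighbour, 36.5% of broad and 29.4% of narrower regions with a broad neighbour, and a broad median score of 20.5. In the higher-scoring set of peaks, at or above the median score, broad peaks were 17.9% on the X, 16.5% on 3R, 15.1% on 2R, 13.3% on 2L and 12.9% on 3L, and 76.5% had any neighbour. At 5 kb, 80.1% of broad peaks had any neighbour, and 20.2% of broad and 13.6% of narrower peaks a broad one; at 20 kb these were 95.5%, 38.2% and 32.1%, with 32 clusters. Between midpoints, 19.5% of narrower peaks had a broad peak within 10 kb. A wider limit, distance or merging changes these numbers by construction. The rate on the X over the large autosomal arms ran from 0.88 to 1.02 and crossed 1 with merged peaks. The depth is unknown, so whether more reads would widen peaks was not tested.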
